A study of Mus musculus with 6 samples.

Results

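The genes described here encode splicing factors and RNA helicases, measured in cultured mouse embryonic fibroblasts with and without cyclophilin D. They were chosen by symbol: the SR proteins (Srsf), the SF3A and SF3B subunits, the heterogeneous nuclear ribonucleoproteins (hnRNPs), the Snrp, Prpf and Lsm genes, the Ddx and Dhx helicases, the Rbm genes and Aqr. The rule was written with earlier results of these data known, and Aqr is the only gene that it adds singly. Ddx3x and Ddx3y were left out. The rule found 93 genes among the 7606 that have a named probe, and each gene is represented by its brightest named probe. The members had 145 probes between them, and all 145 passed the filter on dim signals described beside the tests. Gene names exist here only for the 12534 probes of the authors' processed table out of 45281 on the array. Members of these families without a probe in that table, such as Snrpn and Dhx58, were not analysed here.

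Splicing removes introns from precursor RNA. The spliceosome assembles from small nuclear ribonucleoprotein particles (snRNPs), each a small RNA held in a ring of Sm or Lsm proteins, and SF3A, SF3B and Prpf proteins carry it through branch point recognition and activation. SR proteins generally favour the use of an exon and hnRNPs often oppose it, while Ddx and Dhx ATPases remodel RNA and RNA-protein complexes at every step from transcription to decay. Cyclophilin D, encoded by Ppif, is a prolyl isomerase of the mitochondrial matrix that favours opening of the mitochondrial permeability transition pore.

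Total RNA of 3 wild-type and 3 CypD knockout cultures was labelled with biotin and hybridised to Illumina bead arrays. All 6 came from fibroblasts of C57BL/6 background, established from E13.5 embryos and kept in serum-containing medium with no treatment named. The arrays of each genotype carry the letters A, B and C, and no label says whether a letter stands for an embryo, a litter or a culture dish. The p-values therefore reflect nothing beyond the variation from array to array, which may be technical. The labels name neither the way the allele was made nor the passage number.

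Values are log2 intensities after background correction and quantile normalization unless stated otherwise. Each difference is knockout minus wild type, with the standard error (SE) from limma, and n = 3 arrays per group throughout. A gene is said to have risen or fallen when limma's two-sided p-value, adjusted by the Benjamini-Hochberg method over all 27168 probes above the 40th percentile of mean intensity, was under 0.05. Levels of different genes come from different probes and were not set against each other.

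In the order A, B, C used for all values per array, Ppif itself read 13.57, 13.70 and 13.62 in wild type and 12.25, 12.35 and 12.18 in knockout, a difference of -1.37 ± 0.066 (limma adjusted p = 2.96e-09) that left a bright signal. The labels do not say whether its probe lies inside the deleted sequence. Median deposited intensity ran from 223.4 to 251.3 over the 6 arrays, and correlation across probes was at least 0.9925 within groups and 0.9845 to 0.9855 between them. Of 15 fibroblast markers 11 had a named probe, and their summed intensity was 76452 to 82847 in wild type and 68712 to 74958 in knockout, with 3 markers higher and 4 lower in knockout. Col1a1 was bright (13.99 and 13.36), whereas the named probes of Vim (7.84 and 7.60) and Dcn (7.61 and 6.97) were dim in wild type and knockout. The 13 measured of 20 proliferation genes summed to 74859 to 80830 in wild type and 83403 to 87065 in knockout, without overlap, and 3 of them rose. The 3 measured endothelial markers summed to 1731 to 1899 in wild type and 2278 to 2408 in knockout, also without overlap. Flt1 (0.44) and Eng (0.52) rose, while Esam was lower and did not pass (-0.38, limma adjusted p = 0.0603). Of the muscle list 2 markers were measured and 1 fell (577 to 705 against 584 to 635 in sum), of the leukocyte list 2 were measured and none passed (864 to 1066 against 879 to 902), and no erythroid marker was measured. The part of any of these lists in the results was not tested. In bulk RNA, fewer cells of a type and less RNA per cell cannot be told apart. Wild-type array C stood apart from its group: its limma array weight was the lowest of the 6 at 0.5927, so counts are given with and without it.

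In 4 members, Rbm45, Aqr, Rbm43 and Prpf31, the change reached 1.5-fold. The upstream sequences of Rbm45, Aqr and Prpf31 are shown because these members moved furthest and each has 1 window in the RefSeq promoter table. For Rbm45 the gene's annotated extent begins slightly upstream of the start used for that window. Each window holds the 250 bases before and the 50 after the annotated start, 5′ to 3′ on the gene's strand, from RefSeq for mouse build GRCm38.p6. Capitals mark matches to any of 5 motifs searched on both strands: the GC box GGGCGG, the CCAAT box CCAAT, the TATA box TATAAA, the E-box CACGTG and the cAMP response element TGACGTCA. Rbm45 starts on the plus strand of chromosome 2 (chr2:76369734-76370033), Aqr on the minus strand of the same chromosome (chr2:114175290-114175589) and Prpf31 on the plus strand of chromosome 7 (chr7:3629735-3630034).
Rbm45: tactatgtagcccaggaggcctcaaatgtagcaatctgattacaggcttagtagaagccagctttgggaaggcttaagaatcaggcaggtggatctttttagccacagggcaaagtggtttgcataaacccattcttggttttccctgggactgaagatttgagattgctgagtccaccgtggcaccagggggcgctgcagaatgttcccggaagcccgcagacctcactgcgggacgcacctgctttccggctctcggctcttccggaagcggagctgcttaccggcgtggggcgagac
Aqr: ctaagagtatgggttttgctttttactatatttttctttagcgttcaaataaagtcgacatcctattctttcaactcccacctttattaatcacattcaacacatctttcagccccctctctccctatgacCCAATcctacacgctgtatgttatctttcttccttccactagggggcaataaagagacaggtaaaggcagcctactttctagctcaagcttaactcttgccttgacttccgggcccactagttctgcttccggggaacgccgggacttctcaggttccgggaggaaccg
Prpf31: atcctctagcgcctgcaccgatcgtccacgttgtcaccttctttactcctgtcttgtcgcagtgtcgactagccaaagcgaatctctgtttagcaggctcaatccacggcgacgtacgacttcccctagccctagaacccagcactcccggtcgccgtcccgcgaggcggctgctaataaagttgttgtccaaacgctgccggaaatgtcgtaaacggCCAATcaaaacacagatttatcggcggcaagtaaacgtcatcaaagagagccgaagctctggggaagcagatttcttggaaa
None of the 5 letter strings occurred in the Rbm45 window, which was 55.3% G and C. The Aqr window, 45.7% G and C, and the Prpf31 window, 53.3% G and C, each held 1 CCAAT box. CCAAT occurred in 37.4% of all 32851 mouse windows of this length and in 50.9% of the 106 windows of members. GGGCGG occurred in 35.7% of all windows and 60.4% of member windows, TATAAA in 13.6% and 9.43%, CACGTG in 7.15% and 12.3%, and TGACGTCA in 1.79% and 3.77%. Windows were found for 79 of the 93 members. A match is a description of the letters and no evidence of a bound factor, and nothing about a factor follows where none was found.

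Rbm45 and Aqr read close to the array median in wild-type cells and were bright in knockout cells, and no other member changed by as much. Rbm45 encodes an RNA-binding protein with RNA recognition motifs that is abundant in developing nervous tissue. It read 7.20, 7.38 and 7.13 in wild type and 11.19, 11.19 and 11.14 in knockout. The 3 knockout arrays were nearly identical and lay far above all wild-type arrays. The difference was 3.94 ± 0.092, or 15.3-fold as corrected (limma adjusted p = 3.12e-12). Without background correction the same comparison gave 3.29, or 9.8-fold, and the comparison gave 9.83-fold in the processed table deposited by the authors. In the deposited intensities, before any correction, Rbm45 was 261, 268 and 225 in wild type, about the level of the array medians, and 2394, 2304 and 2334 in knockout. Its mean thus moved from the 55.6th to the 88.9th percentile of the probes on the array.

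Aqr encodes Aquarius, a helicase that binds introns in the assembled spliceosome. It read 6.88, 7.17 and 7.39 in wild type and 11.06, 11.01 and 10.96 in knockout, again with no overlap and a tighter knockout group. The difference was 3.87 ± 0.12, 14.6-fold as corrected (limma adjusted p = 2.67e-11), against 9.12-fold without background correction and 9.14-fold in the authors' processed table. Deposited intensities were 229, 244 and 251 against 2183, 2060 and 2068, which took the probe from the 52.2nd to the 88.1st percentile. Each of these genes has 1 named probe, so no second probe was available to set beside it. With wild-type intensities at the array median and no detection p-values, the wild-type level may be background. The size of either rise is therefore set in part by the correction and its offset of 50, while the direction is not. In the authors' processed table the highest value over the arrays was at least 273 in every probe. All wild-type deposited intensities of both genes lay below that, so both probes have a name only through their knockout values. From such a level a rise was the only large change that could be seen.

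Both genes lie on chromosome 2. The gene next to Aqr among those with a named probe, Meis2, a homeobox transcription factor, rose by 2.42 (limma adjusted p = 4.63e-11), while Grem1 on the other side fell by 0.62 (limma adjusted p = 0.00525). Beside Rbm45, Ttc30a1 rose by 0.51 (limma adjusted p = 0.00792) and Osbpl6 fell by 0.51 (limma adjusted p = 0.000893). Neither rise was therefore shared by both neighbours.

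**Figure D1:**
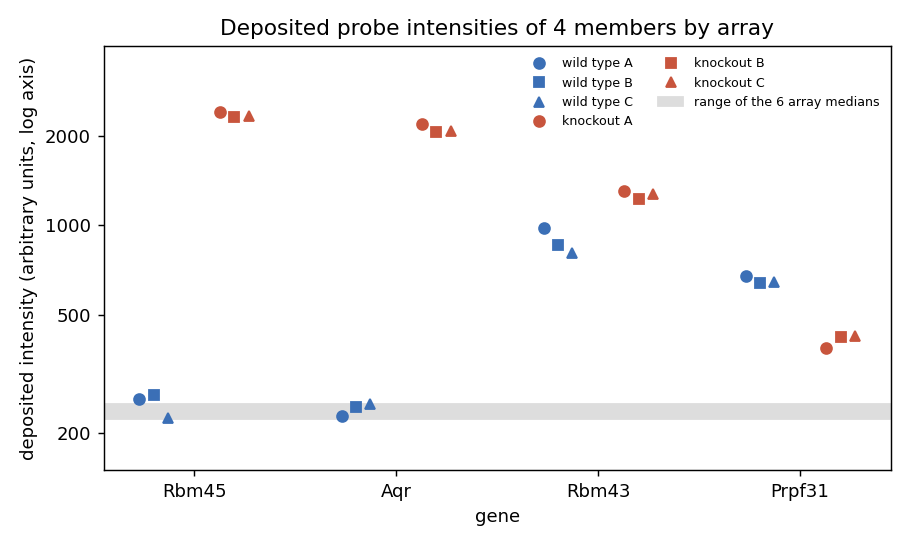
Deposited probe intensity in arbitrary units (vertical log axis) of Rbm45, Aqr, Rbm43 and Prpf31 on each of the 3 wild-type (blue) and 3 knockout (red) arrays, with marker shape for the array letter. The grey band is the range of the 6 array medians, 223.4 to 251.3: wild-type Rbm45 and Aqr lie at or near it and the knockout arrays lie between 2060 and 2394.

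Across all members, 22 of 93 changed, 12 upward and 10 downward. That is 23.7% of members, against 43.6% of all 7605 named genes tested (21.8% rose and 21.8% fell) and 20% of all probes tested. In every probe of the authors' processed table the highest of the 6 values was at least 1.2 times the lowest, so named genes stand for probes that vary and are the nearer background. The members' median difference was 0.03 and their median size of difference 0.16, against 0.01 and 0.24 over all named genes. All 22 changed members had groups that did not overlap (43.1% of named genes changed without overlap), as did 35 members in all (background 56.1%). Only 4 changed by at least 1.5-fold: Rbm45, Aqr, Rbm43 and Prpf31 (background 14.1%). Without wild type C, 34 members passed, 15 upward and 19 downward (background 47%, with 23.6% rising and 23.3% falling). Under median scaling in place of quantile normalization, 8 rose and 12 fell (background 42.9%, with 18.5% rising and 24.4% falling). Without limma's intensity trend, which lets the prior variance follow brightness, 13 passed (background 36.1%, with 18% rising and 18.1% falling).

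**Figure D2:**
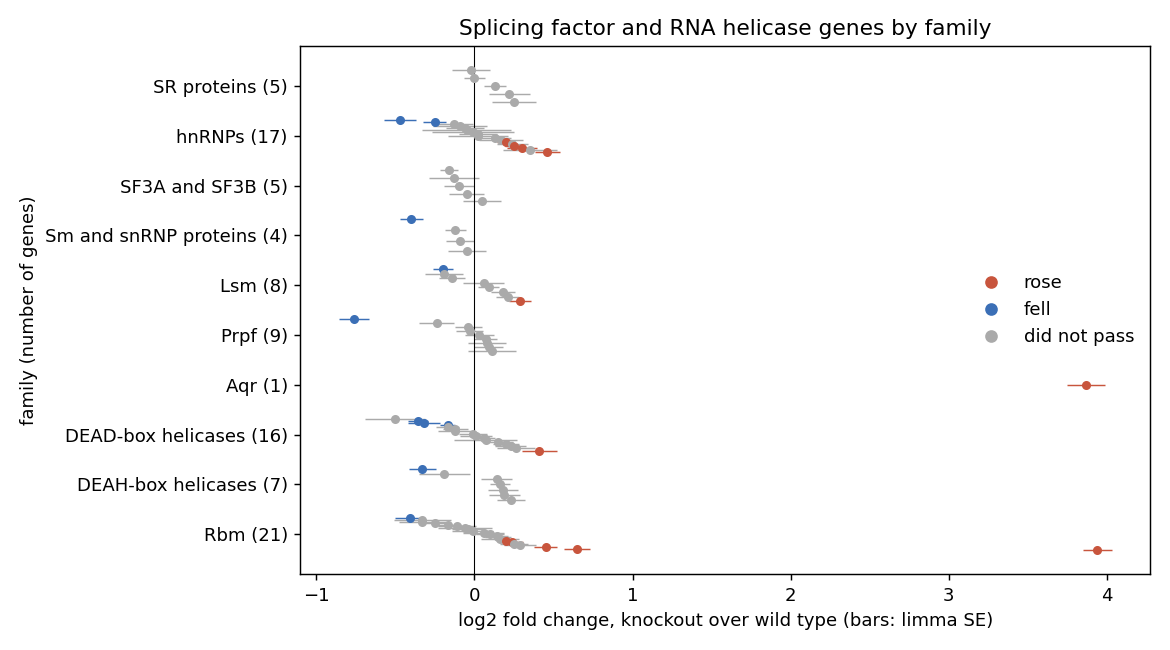
Log2 fold change of each of the 93 members, knockout over wild type (horizontal axis, bars are the limma SE), by family with the number of genes in brackets. Red points rose, blue points fell and grey points did not pass; apart from Rbm45 and Aqr at 3.94 and 3.87, all members lie between -0.76 and 0.65.

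Among the 4 Snrp genes, only Snrpd1 changed (25%, against 43.6% of named genes). It encodes SmD1, a subunit of the Sm ring on most spliceosomal snRNAs. Its values were 13.52, 13.65 and 13.42 in wild type and 13.21, 13.18 and 13.00 in knockout, and the groups were cleanly separated. The difference was -0.40 ± 0.074 (limma adjusted p = 0.00135), and its other probe passed too. Snrpa, of the U1 particle (-0.05, limma adjusted p = 0.837), and Snrpb, which encodes SmB (-0.09, limma adjusted p = 0.597), did not pass. Snrpg, the SmG gene, depended on the probe: the brighter gave -0.12 (limma adjusted p = 0.257), while a dimmer one read 8.81, 8.76 and 8.86 against 8.38, 8.26 and 8.35, a difference of -0.48 (limma adjusted p = 0.00157).

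Of 8 Lsm genes, 1 rose and 1 fell (25% changed, against 43.6% of named genes). Lsm2, a subunit shared by the rings that guard U6 snRNA and start mRNA decay, read 13.43, 13.45 and 13.51 in wild type and 13.16, 13.30 and 13.32 in knockout (difference -0.20 ± 0.062, limma adjusted p = 0.0334). Its fall was lost when wild type C was left out (-0.18, limma adjusted p = 0.0732). Lsm14b, a relative of the P-body protein LSM14A, read 12.26, 12.46 and 12.45 against 12.63, 12.70 and 12.71 (difference 0.29 ± 0.07, limma adjusted p = 0.00857). Both pairs of groups stood apart, but by small steps. The other probes of Lsm14b, both dimmer, gave 0.35 (limma adjusted p = 0.127) and 0.03 (limma adjusted p = 0.91), and with the mean of its probes the call was lost (0.22, limma adjusted p = 0.111). Lsm5, another subunit of the U6 ring, missed the threshold narrowly: 13.86, 13.92 and 13.63 in wild type and 14.01, 13.99 and 14.05 in knockout (difference 0.21 ± 0.071, limma adjusted p = 0.0502). Lsm8 (0.09, limma adjusted p = 0.421), which makes the ring nuclear, and Lsm10 (0.18, limma adjusted p = 0.122), of the histone pre-mRNA U7 particle, did not pass.

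Of the 9 Prpf genes, 1 changed (11.1%, against 43.6% of named genes). Prpf31 encodes a U4/U6 protein needed to form the tri-snRNP, mutated in a form of retinitis pigmentosa. It read 9.05, 9.05 and 9.17 in wild type and 8.19, 8.41 and 8.37 in knockout. The lowest wild-type array exceeded the highest knockout array. The difference was -0.76 ± 0.096, 1.7-fold lower, with limma adjusted p = 4.95e-05. The annotation ties this probe to a cDNA clone record and not to a curated transcript. Prpf3 (0.07, limma adjusted p = 0.569), its partner in the U4/U6 particle, Prpf19 (-0.03, limma adjusted p = 0.856), a ubiquitin ligase of the activated spliceosome, and Prpf38a (-0.04, limma adjusted p = 0.848) did not pass, and the family's median difference was 0.03.

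No SF3A or SF3B gene changed out of 5, and the range of their differences was -0.16 to 0.05. These subunits of the U2 snRNP hold the branch point. Sf3b5 came nearest, with 13.69, 13.72 and 13.84 in wild type against 13.56, 13.63 and 13.56 in knockout. These groups did not overlap, yet the difference of -0.16 ± 0.059 did not pass (limma adjusted p = 0.0683). Sf3b4 (-0.05, limma adjusted p = 0.839) and Sf3b6 (-0.10, limma adjusted p = 0.547) did not pass either. At an unadjusted p under 0.05, 1 of the 5 passed, against 37 of all 93 members and 58.2% of named genes.

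The 5 SR proteins also gave no call, and none passed at an unadjusted p under 0.05, which 58.2% of named genes did. Srsf1, a bright probe for the founding member of the family, read 15.04, 14.91 and 14.76 against 14.91, 14.87 and 14.92 (difference -0.00 ± 0.064, limma adjusted p = 0.977). Knockout values fell inside the wild-type range. Srsf6 differed by 0.13 ± 0.071 (limma adjusted p = 0.252) and Srsf5 by -0.02 ± 0.12 (limma adjusted p = 0.941). The family's differences ran from -0.02 to 0.25, with a median of 0.13.

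Of 17 hnRNPs, 4 rose and 2 fell (35.3% changed, against 43.6% of named genes). The rises included 2 closely related genes. Hnrnpd, which encodes AUF1, a protein that binds AU-rich elements and promotes mRNA decay, read 9.93, 9.90 and 9.99 in wild type and 10.34, 10.41 and 10.46 in knockout. Its knockout values were all higher, by 0.46 ± 0.079 on average (limma adjusted p = 0.00069). Hnrnpdl, its close paralog, read 13.13, 13.15 and 13.25 against 13.40, 13.46 and 13.44 (difference 0.25 ± 0.059, limma adjusted p = 0.00658), a call that was lost under median scaling. The groups of both genes were separate. The dimmer probes of Hnrnpdl gave 0.40 (limma adjusted p = 0.000208) and 0.25 (limma adjusted p = 0.122). Hnrnpr rose by 0.30 (limma adjusted p = 0.0431) and Hnrnpll, a regulator of Cd45 exon skipping in lymphocytes, by 0.20 (limma adjusted p = 0.0212). Without wild type C neither passed (limma adjusted p = 0.0772 and 0.0539).

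Hnrnpa3, of the hnRNP A/B group, fell. Its values were 9.12, 9.07 and 8.79 in wild type and 8.52, 8.57 and 8.47 in knockout, with every knockout array below wild type C, the lowest of its group. The difference was -0.47 ± 0.1 (limma adjusted p = 0.00486). Hnrnpa3 lies 3 named genes before Rbm45 on chromosome 2. Hnrnpab read 11.17, 11.15 and 11.26 against 10.88, 10.98 and 10.98 (difference -0.25 ± 0.073, limma adjusted p = 0.0287). Without wild type C its difference was -0.22 (limma adjusted p = 0.0608). The family's median difference was 0.02.

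Of 21 Rbm genes 5 rose and 1 fell (28.6% changed, against 43.6% of named genes), with a median difference of 0.10. They share RNA recognition motifs and little else in function. Next to Rbm45 in size, Rbm43 read 9.66, 9.53 and 9.54 in wild type and 10.25, 10.21 and 10.21 in knockout, with well separated groups. The difference was 0.65 ± 0.081, 1.57-fold (limma adjusted p = 4.49e-05). Rbm4b, a paralog of the alternative splicing factor Rbm4, read 11.28, 11.25 and 11.20 against 11.65, 11.80 and 11.62. Here too each knockout array exceeded each wild-type array, with a difference of 0.45 ± 0.074 (limma adjusted p = 0.000571). Rbm5, which regulates splicing of apoptosis genes such as Fas, rose by 0.20 ± 0.059 (limma adjusted p = 0.0262), and Rbm18 by 0.24 ± 0.069 (limma adjusted p = 0.0234). Both of the last calls were lost under median scaling, and that of Rbm18 also with the mean of its probes (0.17, limma adjusted p = 0.206).

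Rbm38 was the Rbm gene that fell. It encodes an RNA-binding protein induced by p53 that stabilises the mRNA of the cell-cycle inhibitor p21. Wild-type arrays read 9.86, 9.90 and 10.08 and knockout arrays 9.49, 9.65 and 9.47, without overlap. The difference was -0.41 ± 0.092 (limma adjusted p = 0.00517). A dimmer probe of Rbm38 gave -0.31 and did not pass (limma adjusted p = 0.0666). Rbm8a, the Y14 subunit of the exon junction complex (-0.04, limma adjusted p = 0.858), Rbm15, which recruits the m6A writer complex (0.15, limma adjusted p = 0.252), and Rbm48 (0.14, limma adjusted p = 0.201) did not pass.

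Of the 16 Ddx genes, 1 rose and 3 fell (25% changed), and of the 7 Dhx genes 1 fell (14.3%), against 43.6% of named genes changed. Several of those that changed act outside splicing. Ddx6, a repressor of translation and core protein of P-bodies, read 8.50, 8.68 and 8.44 in wild type and 9.12, 8.85 and 8.87 in knockout. All knockout arrays were higher, and the difference was 0.41 ± 0.11 (limma adjusted p = 0.0148). A second, dimmer probe gave -0.02 (limma adjusted p = 0.957), and with the mean of both probes the call was lost (0.19, limma adjusted p = 0.256). Ddx27, a nucleolar helicase of ribosome assembly, read 12.72, 12.83 and 12.75 against 12.44, 12.36 and 12.42. The groups were clearly apart, with a difference of -0.36 ± 0.063 (limma adjusted p = 0.000792), and its other named probe passed too.

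Ddx58, which encodes the cytosolic viral RNA sensor RIG-I and is no splicing factor, read 8.54, 8.85 and 8.67 in wild type and 8.31, 8.43 and 8.38 in knockout. The groups did not overlap, and the difference of -0.32 ± 0.1 passed narrowly (limma adjusted p = 0.0439). Ddx17, a helicase and transcriptional coregulator also known as p72, read 15.25, 15.30 and 15.17 against 15.02, 15.10 and 15.07. Its difference of -0.17 ± 0.05 (limma adjusted p = 0.0238) was the smallest change among the 22. Dhx32 read 11.28, 11.51 and 11.56 against 11.22, 11.10 and 11.05 (difference -0.33 ± 0.086, limma adjusted p = 0.0144), with 1 knockout array close below the lowest wild-type array.

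The named helicases that did not pass include one of the splicing cycle itself. Dhx15, which takes apart the spliceosome after splicing, read 14.58, 14.58 and 14.43 in wild type and 14.56, 14.77 and 14.73 in knockout. The groups overlapped, with a difference of 0.16 ± 0.064 (limma adjusted p = 0.111). Dhx9, RNA helicase A, gave -0.19 (limma adjusted p = 0.485), Dhx57 0.14 (limma adjusted p = 0.395), Ddx41 0.01 (limma adjusted p = 0.964) and the DNA helicase Ddx11 -0.17 (limma adjusted p = 0.114). Ddx21, a nucleolar helicase, gave 0.06 with its brightest probe (limma adjusted p = 0.668). The mean of its probes gave -0.31 (limma adjusted p = 0.00537), so its direction depends on the probe.

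**Figure D3:**
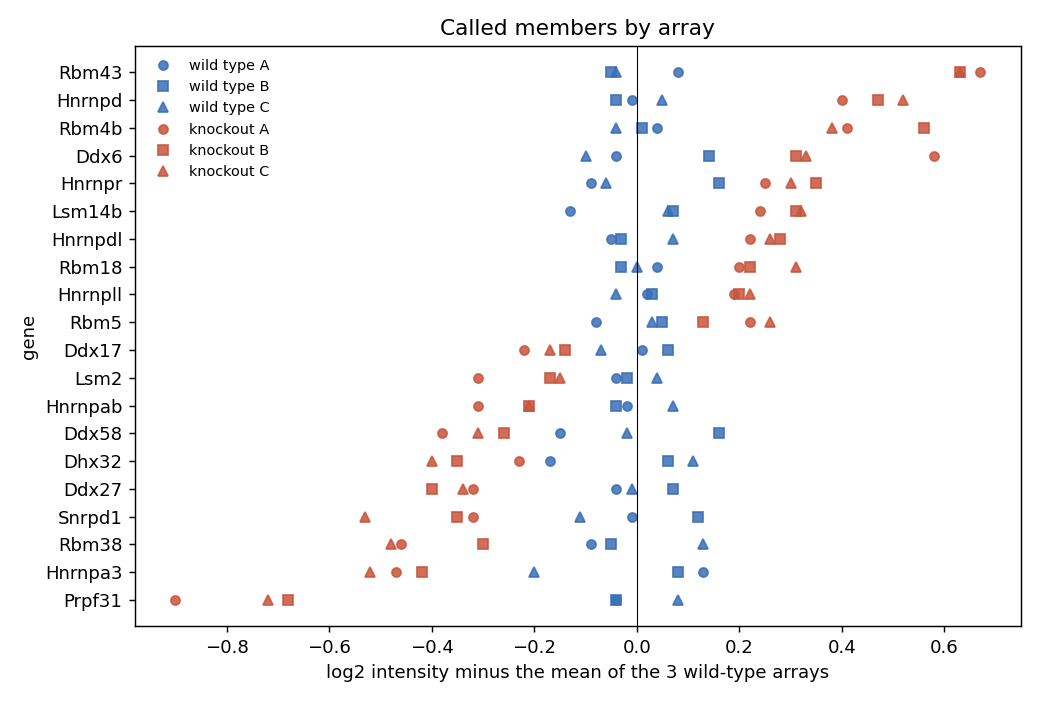
Log2 intensity of the 20 changed members other than Rbm45 and Aqr, as each array's distance from the mean of the 3 wild-type arrays (horizontal axis); blue marks wild type, red knockout, and marker shape the array letter. In each gene the 3 red points lie on one side of the 3 blue points, from Prpf31 at the bottom to Rbm43 at the top.

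Of the smaller changes, 10 were lost when a single array was left out, with limma throughout and the direction kept. Ddx6 lost its call without knockout A (adjusted p = 0.0755) or without wild type A. Dhx32 and Rbm18 each lost theirs without knockout B, knockout C or wild type B, at adjusted p up to 0.0696 and 0.11, and Rbm5 without knockout A, knockout C or wild type A, at up to 0.117. Ddx17 depended on knockout A and C and wild type A and B (up to 0.0926), and Ddx58 on all 3 knockout arrays and wild type B (up to 0.179). Hnrnpll depended on all knockout arrays and wild type C (up to 0.0757). Hnrnpab (up to 0.122) and Hnrnpr (up to 0.157) depended on every array but wild type B, and Lsm2 on every array but knockout C (up to 0.148). The other 12 changed members passed without any 1 array.

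Of the 37 members with several probes, 5 passed with every probe (Ddx27, Hnrnpll, Lsm2, Rbm5 and Snrpd1), 9 with some and 23 with none. In 0 of them did probes pass in opposite directions. The same split was not counted over all named genes, so these counts have no background beside them. Hnrnpa2b1 and Hnrnpa1 are among the 9. The brightest probe of Hnrnpa2b1 read 12.84, 13.43 and 11.89 in wild type and 13.02, 12.68 and 12.31 in knockout, a broad scatter in both groups (difference -0.05 ± 0.28, limma adjusted p = 0.936). A second probe, for another transcript of the gene, read 11.28, 11.22 and 11.32 against 11.53, 11.50 and 11.66. That probe separated the groups, with a rise of 0.29 ± 0.073 (limma adjusted p = 0.0114). The dimmest probe of Hnrnpa2b1, annotated to the same transcript as the probe that rose, gave 0.10 ± 0.099. It did not pass (limma adjusted p = 0.559), so the rise was not shared by both probes of that transcript. For Hnrnpa1, the brightest probe gave -0.09 ± 0.17 (limma adjusted p = 0.785). Its second probe read 10.11, 9.90 and 9.73 in wild type and 9.61, 9.59 and 9.37 in knockout, a difference of -0.39 ± 0.11 (limma adjusted p = 0.0197). Hnrnpa1 has near-identical processed copies in the genome, and cross-hybridisation was not tested.

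Scatter within a group was wide in some members. Counting genes whose SD over 3 arrays reached 0.3 in a group, a bound set after the values were seen, gave 16 of 93 members (17.2%) and 6.27% of named genes. The 12 of widest spread include 5 other hnRNPs beside Hnrnpa2b1, namely Hnrnph2, Hnrnpk, Hnrnpa1, Hnrnpf and Hnrnpa0. Wild type C was the array farthest from its group mean in 55 of 93 members (59.1%), against 44.3% of named genes. It was the lowest of all 6 arrays in 33.3% of members and in 9 of 17 hnRNPs (52.9%), against 17.1% of named genes. Some transcripts thus read lowest on that array alone. It was the highest of all 6 arrays in 18.3% of members, 5.88% of hnRNPs and 24.1% of named genes, so it did not read low in general.

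Hnrnpk, a bright and widely used poly(C)-binding protein gene, is an example. It read 12.54 and 12.58 in wild type A and B but 11.59 in C, and 12.37, 12.16 and 12.22 in knockout. With all arrays the difference was 0.02 ± 0.19 (limma adjusted p = 0.973). Without wild type C it was -0.31 (limma adjusted p = 0.00677). Wild type C was singled out from these same values. The p-values without it, throughout, show dependence on that array and are no independent support. Ddx5, the p68 helicase, read 9.93, 10.29 and 9.24 against 10.06, 9.67 and 9.93 and passed neither way (limma adjusted p = 0.871 and, without C, 0.231). Dhx9 read 11.05, 10.78 and 10.23 against 10.61, 10.48 and 10.39, and its difference became -0.42 without C (limma adjusted p = 0.00443).

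Leaving out wild type C added 16 members to those called and removed 4. The added falls were Ddx10, Ddx11, Dhx9, Hnrnpa1, Hnrnph2, Hnrnpk, Prpf4, Rbm12, Rbm41, Rbm6 and Sf3a3. Among these 11 the largest were Ddx10 (-0.72, limma adjusted p = 0.00139), a nucleolar helicase, Rbm41 (-0.59, limma adjusted p = 0.00311) and Rbm6 (-0.52, limma adjusted p = 0.00212). The 5 added rises were Ddx39a, an mRNA export helicase (0.38, limma adjusted p = 0.021), Dhx29, a helicase of translation initiation (0.29, limma adjusted p = 0.0295), Dhx34, Hnrnpa0 and Lsm10. Hnrnpab, Hnrnpll, Hnrnpr and Lsm2 were removed. Whether RNA quality or labelling of that array has a part in these readings was not tested.

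**Figure D4:**
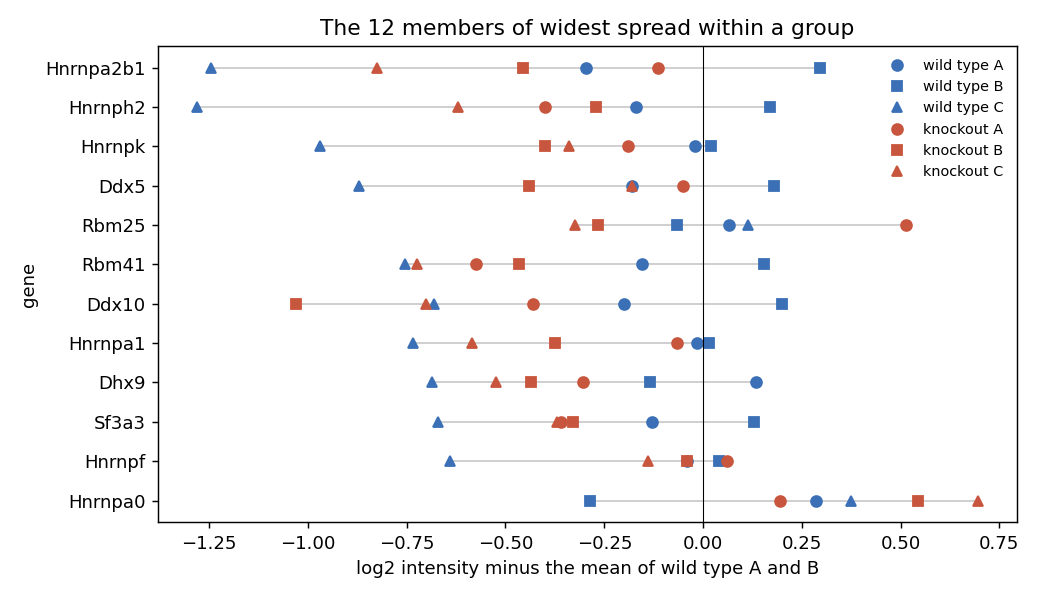
Log2 intensity of the 12 members with the widest spread within a group, as each array's distance from the mean of wild type A and B (horizontal axis); blue marks wild type, red knockout, shape the array letter and the grey line the range. Wild type C (blue triangles) is the lowest array in most of these genes, as in Hnrnpk at 11.59 against 12.54 and 12.58.

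Other genes of the same machinery were taken from a list of 189, of which 117 had a tested named probe. Of these 16 rose and 22 fell (32.5% changed, against the background of 43.6% of named genes), with a median difference of -0.01. Without wild type C, 44 passed, while the share of named genes that passed was 47%. Of 30 tissue and alternative splicing regulators, 6 rose and 8 fell, a share of 46.7% that is close to the background. Mbnl1, the muscleblind splicing regulator, rose by 0.41 ± 0.05 (limma adjusted p = 3.36e-05) and Cirbp, the cold-inducible RNA-binding protein, by 0.80 ± 0.1 (limma adjusted p = 4.69e-05). Matr3, the nuclear matrix protein matrin 3, fell by 1.02 ± 0.093 (limma adjusted p = 2.09e-06) and Celf4, a regulator mainly of neurons, fell by 0.88 ± 0.099 (limma adjusted p = 1.66e-05).

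Rbfox1 and Elavl2, also known from neurons, were picked out after their values were seen. Rbfox1 read 9.39, 8.86 and 9.04 in wild type and 8.05, 8.08 and 8.04 in knockout (limma adjusted p = 2.32e-05). Elavl2 read 7.93, 7.87 and 7.67 against 7.17, 7.08 and 7.02 (limma adjusted p = 0.000212). Neither gene's groups overlapped. Nova2 (0.01, limma adjusted p = 0.974) and Ptbp2 (-0.18, limma adjusted p = 0.425) of the same list did not pass. Of the 4 measured of 13 neural and glial markers, 3 were lower in knockout (Stmn2, Nes and Mbp). Syp did not pass (0.10, limma adjusted p = 0.693). The summed intensity of these 4 markers was 5759 to 6432 in wild type and 1920 to 2058 in knockout. The part of such cells in the change of these splicing regulators was not tested.

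In the other parts of that list the changes were spread. Between 20% and 44.4% of the genes of each part changed, against 43.6% of named genes. Of 9 genes for recognition of the branch point and 3′ splice site, 3 rose and 1 fell: Sugp2 by 0.65 (limma adjusted p = 3.24e-05) and Sugp1 by 0.24 (limma adjusted p = 0.0211) were among the rises, and Puf60, a relative of the U2AF large subunit, fell by 0.24 (limma adjusted p = 0.00496). Of 10 genes for snRNP-specific proteins and tri-snRNP partners, 2 fell. Snu13, which binds the U4 kink-turn, fell by 0.58 (limma adjusted p = 2.34e-05) and Txnl4a, a U5 component, fell by 0.48 (limma adjusted p = 6.1e-05).

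Of 15 genes for Prp19-associated and activated spliceosome proteins, 3 fell, including Slu7, a factor of the second catalytic step (-0.30, limma adjusted p = 0.031), and Smu1 (-0.29, limma adjusted p = 0.0428). Among 24 SR-related proteins and SR kinases, 4 rose and 3 fell. Srrm1, an exon-bridging coactivator, rose by 0.54 (limma adjusted p = 0.0101) and Tra2a by 0.23 (limma adjusted p = 0.0129), while Clasrp fell by 0.36 (limma adjusted p = 0.0109) and Scaf11 fell by 0.29 (limma adjusted p = 0.00373). Of 12 genes around the SMN complex, which loads Sm rings onto snRNA, 1 rose and 2 fell. Gemin2 rose by 0.31 (limma adjusted p = 0.0345). Phax, the snRNA export adaptor, fell by 0.23 (limma adjusted p = 0.0241), and Tgs1, which trimethylates the snRNA cap, fell by 0.34 (limma adjusted p = 0.03).

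Among 9 genes of the exon junction complex, mRNA export and nonsense-mediated decay, 2 fell, both of the THO export complex: Thoc1 fell by 0.52 (limma adjusted p = 0.0005) and Thoc2 fell by 0.63 (limma adjusted p = 0.0156). Of 8 RNA helicases outside the Ddx and Dhx symbols, 2 rose and 1 fell. Mtrex, the helicase of the nuclear exosome, rose by 0.45 (limma adjusted p = 0.000583) and Dicer1, which cuts microRNA precursors, by 0.41 (limma adjusted p = 0.00215). Ythdc2, a reader of m6A needed in meiosis, fell by 0.44 (limma adjusted p = 0.00475).

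Of the genes named from that list, 9 of those described above lost their call when a single array was left out, at limma adjusted p up to 0.0573 for Clasrp, 0.153 for Gemin2, 0.104 for Phax, 0.124 for Slu7, 0.185 for Smu1, 0.103 for Sugp1, 0.154 for Tgs1, 0.0736 for Thoc2 and 0.0683 for Tra2a. The arrays concerned were knockout A, knockout C or wild type A for Clasrp, knockout B, knockout C or wild type B for Gemin2 and Thoc2, and knockout A for Tra2a. For Phax they were any knockout array or wild type A, for Slu7 knockout A or C or wild type B or C, and for Tgs1 knockout A or B or wild type A. For Smu1 and Sugp1 they were knockout B or C or wild type A or B. Smu1 also depended on the probe, with -0.069 for the mean of its probes (limma adjusted p = 0.569), as did Tgs1 with -0.26 (limma adjusted p = 0.064). Median scaling ended the calls of Gemin2 (0.0545), Sugp1 (0.1) and Tra2a (0.125). Without the intensity trend, Gemin2, Phax, Puf60, Slu7, Smu1, Sugp1, Tgs1 and Tra2a lost their calls (limma adjusted p 0.0537 to 0.118). The remaining genes of the list described above passed without any 1 array.

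Many of the falls shared a chromosome, a grouping made after the values were seen and given as a description. On chromosome 18, 6 of the 7 measured genes of that list fell and none rose, among them Matr3, Celf4, Thoc1, Txnl4a, Ythdc2 and Phax, and the member located there, Snrpd1, fell too. All named genes of chromosome 18 fell at a rate of 64.8%, with a median difference of -0.35 over 216 genes. Relative to the wild-type mean, the median gene of chromosome 18 stood at -0.33, -0.36 and -0.35 in knockout A, B and C. On chromosome 15, 5 of 6 genes of the list fell, including Snu13, Puf60 and Scaf11, as did 58% of its 362 named genes, with a median difference of -0.30. Of the members on chromosome 15, Ddx17 fell, and Hnrnpa1 and Prpf40b did not pass. On all other chromosomes together, 16 genes of the list rose and 11 fell out of 104, where 22.9% of named genes rose and 18.6% fell.

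These shifts were the same in each knockout array and present under median scaling, where the median gene of chromosome 18 stood at -0.36, -0.42 and -0.38 and that of chromosome 15 at -0.36, -0.35 and -0.34. The difference of Snrpd1 (-0.40) lay close to the median of its chromosome, and that of Ddx17 (-0.17) closer to 0 than the median of its own. The part of the chromosome in these results was not tested, and neither was any difference in copy number of chromosomes 15 and 18 between the cultures. On chromosome 2, 8 of 13 members changed (5 up and 3 down), and elsewhere 14 of 80. The 8 include Aqr, which the rule added singly, and Rbm45. Both have a name only through their knockout values, so their calls were not open. Without Aqr and Rbm45, 20 of 91 members changed over all chromosomes (22%, against 43.6% of named genes). Of all named genes of chromosome 2, 39.9% changed (21.7% rose and 18.2% fell), against 43.9% on the other chromosomes. The median difference of chromosome 2 was 0.04.

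**Figure D5:**
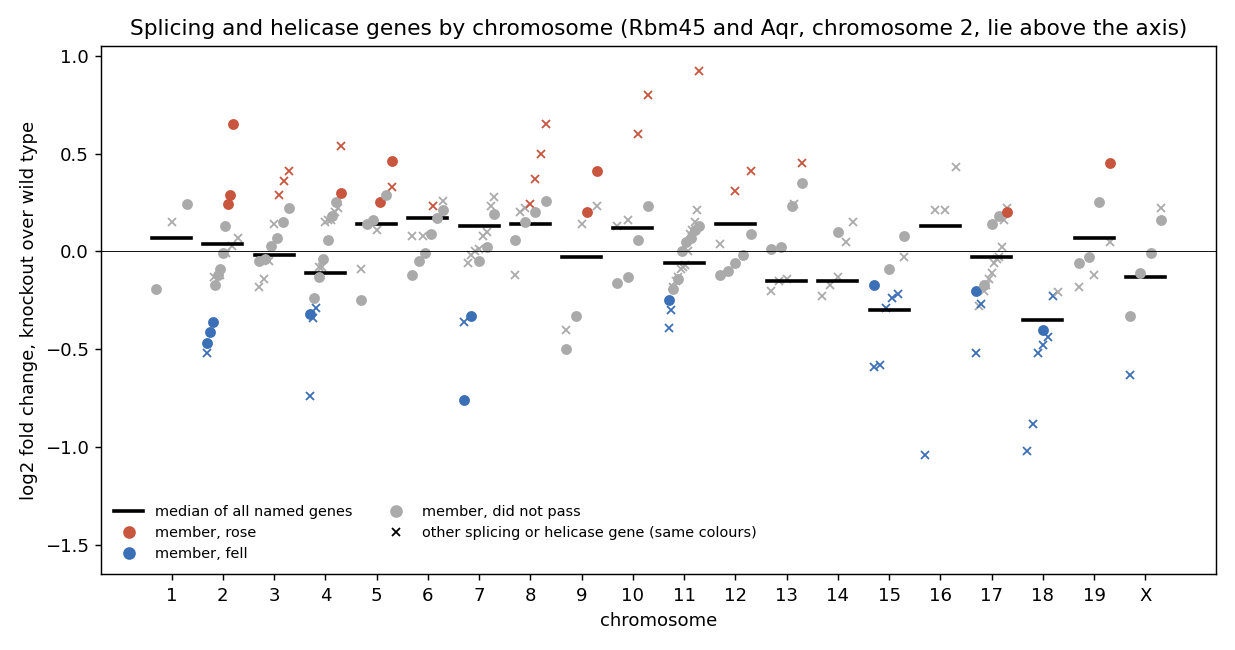
Log2 fold change of members (dots) and of the other splicing and helicase genes (crosses), knockout over wild type, by chromosome; red rose, blue fell, grey did not pass, and black bars are the median of all named genes of the chromosome. On chromosomes 15 and 18 the bars lie at -0.30 and -0.35 and most points lie below 0. On chromosome 2, 5 of the 13 members rose, Rbm45 and Aqr among them, against 21.7% of its named genes.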

How the data were processed

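The authors deposited 1 table of linear probe intensity per array and 1 processed table of intensity for the series. The submitters' processing notes name BeadStudio 3.0, and no source used here gives scanner settings, background handling or filters. The files hold no detection p-values, control probes or slide. The processed values were 0.979 to 1.01 times the quantile-normalized deposited intensities. Its annotation gave 10653 probes 1 symbol, 5 several and 1876 none, and only the first kind was named.

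From the per-array intensities, background was corrected with normexp (offset 50), values were put on the log2 scale and quantile-normalized, probes above the 40th percentile of mean intensity were kept, and groups were compared with limma 3.58.1 (R 4.3.3; lmFit, eBayes with an intensity trend). The offset compresses differences of dim probes. A gene was represented by its brightest probe. Tables and figures were made with Python 3.11.15, pandas 2.3.3 and matplotlib 3.10.9, and the fit was tested on simulated data.

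Members and lists were chosen with earlier results of these data known. Named by rule were all changed members, up to 3 members per family that did not pass, by intensity, and up to 2 changed genes per direction in each part of the companion list; genes with wide spread, Rbfox1, Elavl2 and Prpf40b were named after their values were seen. No label says whether the letters A, B and C pair the arrays. Deviations from the group means correlated at 0.1009, -0.08994 and 0.07534 for the same letter. For different letters the range was -0.2087 to 0.1497, and with 3 arrays per group these values cannot decide the question. Alternatives were the scaling, background correction, filter, intensity trend, probe rule, array weights, the processed table, a replicate block and leaving out each array. The number of arrays limits the precision.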

Additional observations from a re-analysis of the deposited data

How the results depend on the processing

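Of the 22 changed members, 10 passed under all 15 alternatives (Aqr, Rbm45, Rbm43, Rbm4b, Hnrnpd, Prpf31, Snrpd1, Ddx27, Hnrnpa3 and Rbm38), and 12 were lost in at least 1. A further 26 members passed in at least 1 alternative. Without the intensity trend of limma, 13 members passed (7 rose and 6 fell) and 24 genes of the companion list; the cause was not tested. The other alternatives with all arrays gave 20 to 25 members, while 40.7% to 51.6% of named genes passed; the filter at the 70th percentile tested 86 members and the rest all 93. The split of 12 rises and 10 falls became 8 and 12 under median scaling, which moved the median of all probes from -0.00027 to -0.0126. Leaving out 1 array at a time gave 14 to 34 changed members, 8 to 15 rises, 6 to 19 falls and 26 to 44 genes of the companion list. The share of named genes that passed moved too, from 34% without knockout C to 47% without wild type C. The lowest count of members came without knockout C and the highest without wild type C. With a replicate block for the letter, which no label says pairs these arrays, 22 members passed (12 rose and 10 fell), and 37 genes of the companion list. Of the genes named, Gemin2 lost its call (limma adjusted p = 0.0506).

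Signs turned only in members that had not passed. Over all 93 members, the sign turned in 29 when 1 array was left out, 12 of them without wild type C; values follow for the members named. With the mean of a gene's probes the differences were -0.31 for Ddx21, 0.11 for Hnrnpa2b1, -0.05 for Prpf3, -0.012 for Prpf40b, -0.039 for Rbm15, 0.059 for Sf3b6, -0.067 for Srsf10 and 0.015 for Srsf5. Median scaling gave -0.029 for Ddx21, -0.029 for Ddx41 and -0.04 for Hnrnpk, and array weights -0.023 for Ddx5, -0.10 for Hnrnpk and 0.015 for Rbm8a. Leaving out 1 array gave ranges of -0.014 to 0.12 for Ddx21, -0.066 to 0.13 for Ddx41, -0.22 to 0.31 for Ddx5, -0.34 to 0.037 for Hnrnpa1, -0.47 to 0.30 for Hnrnpa2b1, -0.0049 to 0.22 for Hnrnph1, -0.44 to 0.29 for Hnrnph2, -0.31 to 0.18 for Hnrnpk, -0.11 to 0.039 for Prpf19, -0.081 to 0.044 for Prpf38a, -0.0074 to 0.22 for Prpf40b, -0.13 to 0.088 for Rbm8a, -0.17 to 0.023 for Sf3b4, -0.14 to 0.10 for Snrpa, -0.16 to 0.027 for Snrpb, -0.075 to 0.064 for Srsf1 and -0.21 to 0.079 for Srsf5. The absence of detection p-values limits dim probes, such as those of Aqr and Rbm45 in wild type.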

Other observations

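Further tissue splicing regulators of the companion list changed and are given as values, chosen after they were seen. Qk, the quaking gene that controls splicing in glia and muscle, fell by 0.52 (limma adjusted p = 0.000904), and Celf2 fell by 0.52 (limma adjusted p = 4.04e-05). Khdrbs3, a relative of Sam68 on chromosome 15, fell by 0.59 (limma adjusted p = 0.00242). Pcbp3, a poly(C)-binding protein, rose by 0.60 (limma adjusted p = 0.000628), and Esrp2, known as an epithelial splicing regulator, rose by 0.50 (limma adjusted p = 0.00652). Esrp2 was dim, at 7.35 in wild type and 7.84 in knockout. The 4 measured of 10 epithelial markers summed to 1618 to 1633 in wild type and 2007 to 2131 in knockout. Only Spint1 was higher in knockout (9.69 and 10.46), and Krt19 fell. Cldn7 (-0.39, limma adjusted p = 0.0517) and Cdh1 (7.45 and 7.37) were lower and did not pass. The part of these markers in the rise of Esrp2 was not tested. Taf15, of the FET family, rose by 0.92 (limma adjusted p = 0.0289) although its groups overlapped, and lost its call without knockout B, knockout C or wild type B (limma adjusted p up to 0.131): wild type A, B and C read 10.76, 9.71 and 11.04 and knockout 10.90, 11.64 and 11.74.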
